A study of Mus musculus with 12 samples.

Results

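The epithelial lineage transcription factors examined here are 10 genes chosen by name for their known roles in epithelial identity: Trp63, Foxa1, Sox2, Sox4, Sox9, Gata2, Gata3, Grhl2, Elf3 and Ehf. The choice was made with earlier results of these data known. All 10 were listed among the 24674 genes of the deposited table. RNA was measured in organoids, small cultures that form in a gel from epithelial cells, grown from basal cells of the prostate of wildtype C57BL/6 mice. The 12 samples fell into 4 groups of 3: vehicle, UK5099, butyrate, and UK5099 with butyrate (the combination). No group carried a transgene or a deletion. UK5099 blocks the mitochondrial pyruvate carrier, the protein complex that brings pyruvate into mitochondria, and butyrate is a short-chain fatty acid that inhibits histone deacetylases. The sample labels give neither dose nor time, and do not say whether the replicates of a group were separate cultures, so p-values measure the spread between these samples.

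Lineage transcription factors bind regulatory DNA and set which genes a cell type expresses. In the prostate epithelium, basal cells sit on the basement membrane and are marked by p63, the product of Trp63, whereas luminal cells line the lumen and depend on factors such as the forkhead protein Foxa1, which can open closed chromatin. SOX proteins bind DNA through an HMG box, Gata2 and Gata3 through zinc fingers, and Elf3 and Ehf through the ETS domain of the epithelium-specific branch of that family. Grhl2, a grainyhead-like factor, is known for maintaining the genes of epithelial junctions.

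The samples held 33251840 to 43498956 fragments, estimated from the size of the steps between low TPM values. Abundance was in TPM, which in this table was fragments per base of the whole genomic span, introns included, scaled to 1000000 per sample. The levels moved against a shift of the whole scale: among genes averaging 1 TPM or more, the limma coefficients against vehicle had a median of -0.12 in the UK5099 samples, -0.30 in the butyrate samples and -0.41 in the combination samples, on the log2 scale. A scaling by the median of ratios, which sets the typical gene level between samples, brought these medians to 0.01, 0.0006 and 0.0044. For most comparisons of members with vehicle, coefficients are therefore given on both scales. Other coefficients and list counts are on the deposited scale unless another is stated, and can depend on the scale. The basal markers Krt5, Krt14, Krt15 and Itga6 summed to 6526 to 6652 TPM in vehicle, 13488 to 13868 under UK5099, 6911 to 7149 under butyrate and 9974 to 10382 under both. The luminal markers Krt8, Krt18, Krt19 and Prom1 summed to 4139 to 4309, 2330.0 to 2489, 2243 to 2283 and 1389.5 to 1577 TPM in the same order. With butyrate their coefficients were -1.73, -1.26, -0.43 and -1.32. After scaling these were -1.37, -0.90, -0.07 and -1.02, with a limma adjusted p of 0.419 for Krt19. With UK5099 and with the combination Krt19 had -0.53 and -0.90, or -0.38 and -0.39 after scaling. Single basal markers differed from their sum. With butyrate Krt14, Krt15 and Itga6 had coefficients of -0.27, -0.32 and -0.19 and Krt5 of 0.77. After scaling these were 0.09, 0.04, 0.16 and 1.13. With the combination Krt15 had -0.65, or -0.14 after scaling, while Krt5, Krt14 and Itga6 had 1.29, 1.12 and 0.29. Of 3 genes looked up as secretory markers, the secreted products Pbsn and Msmb were not listed. The other, Hoxb13, is a transcription factor that the study describes as a regulator of luminal identity. Its mean was 56.7 TPM in vehicle, 42.3 under UK5099, 52.2 under butyrate and 34.9 under both. Its direction with butyrate depended on the scale. The butyrate coefficient was -0.12 (limma adjusted p = 0.0159) as deposited and 0.23 (adjusted p = 6.77e-04) after scaling. With UK5099 it was -0.42, or -0.27 after scaling, and with the combination -0.68, or -0.19 after scaling. The 4 of 5 neuroendocrine markers listed summed to at most 1.203 TPM and the 3 endothelial markers to at most 0.0415 TPM. The 3 immune markers listed of 4 summed to 23.96 to 25.1 TPM in vehicle and 87.004 to 97.7 TPM with the combination, carried by Cd68, while Ptprc, their defining marker, stayed under 3 fragments in each sample of the treated groups. The 4 fibroblast markers summed to 2.01 to 2.204 TPM in vehicle and 10.4 to 10.8 TPM with butyrate, carried by Dcn at 9.51 ± 0.129 TPM (SD, n = 3). The part of these markers in the results below was not tested. RNA from bulk organoids cannot tell fewer cells of a type from less RNA per cell.

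The 10 members spanned a wide range of levels in vehicle. Levels were compared between genes per exonic length (FPKM, fragments per kilobase of exon scaled to the depth of the sample), with exon lengths from the GENCODE annotation. In vehicle the order ran from Sox4 at 176 ± 0.896 through Foxa1 at 115 ± 0.950 and Ehf at 106 ± 0.280 to Sox9 at 51.03 ± 0.510 (SD, n = 3). The middle was held by Elf3 at 32.8 ± 1.21, Trp63 at 25.2 ± 0.680 and Gata3 at 23.8 ± 0.119. Grhl2 at 15.5 ± 0.180 and Sox2 at 7.79 ± 0.129 lay lower, and Gata2 at 0.575 ± 0.0393 was the lowest. No pair of neighbours in the vehicle order had overlapping sample values. The exon lengths join all annotated exons of a gene, and the spread between samples does not cover error in these lengths. The order changed with treatment. With UK5099, Sox4 at 90.9 ± 1.76 and Foxa1 at 89.4 ± 0.516 overlapped, and with butyrate Foxa1 led at 113 ± 1.03 while Sox4, at 49.2 ± 0.862, ranked the fifth. With the combination Elf3 was second at 73.9 ± 4.97, and Ehf at 57.2 ± 1.74 overlapped with Trp63 at 55.1 ± 2.23.

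The first question was which members each treatment changed, fitted in limma with UK5099, butyrate and their interaction as terms over all genes. A gene is called here at an adjusted p under 0.01 with an absolute coefficient over 1 on log2(TPM + 1). UK5099 called 1 of 10 members, Sox4, which was lower, against 1.84% of all genes, 0.912% being lower. Butyrate called 3, Sox2 higher and Sox4 and Sox9 lower, against 3.54% of all genes (1.13% higher and 2.42% lower). The combination called 3, Sox4, Sox9 and Ehf, all lower, against 6.42% of all genes, 4.63% being lower. Most members moved by less than the size limit. At an adjusted p under 0.01 alone, 8 members passed under UK5099, 10 under butyrate and 9 under both, beside 33.0%, 45.6% and 51.0% of all genes. These shares include genes averaging under 1 TPM, and the shares among genes above that level are not given. The median coefficient of the members was 0.04 under UK5099, -0.25 under butyrate and -0.40 under both, and -0.03, -0.07 and -0.11 over all genes. Among genes averaging 1 TPM or more it was -0.12, -0.30 and -0.41, so under butyrate and the combination the members lay near the typical expressed gene. On the median of ratios scale the called members were 0 with UK5099, 3 with butyrate (Sox2 and Elf3 higher, Sox4 lower) and 4 with the combination (Trp63, Sox2 and Elf3 higher, Sox4 lower), against 1.67%, 3.02% and 4.67% of all genes. The 3 comparisons share the vehicle samples.

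**Figure D1:**
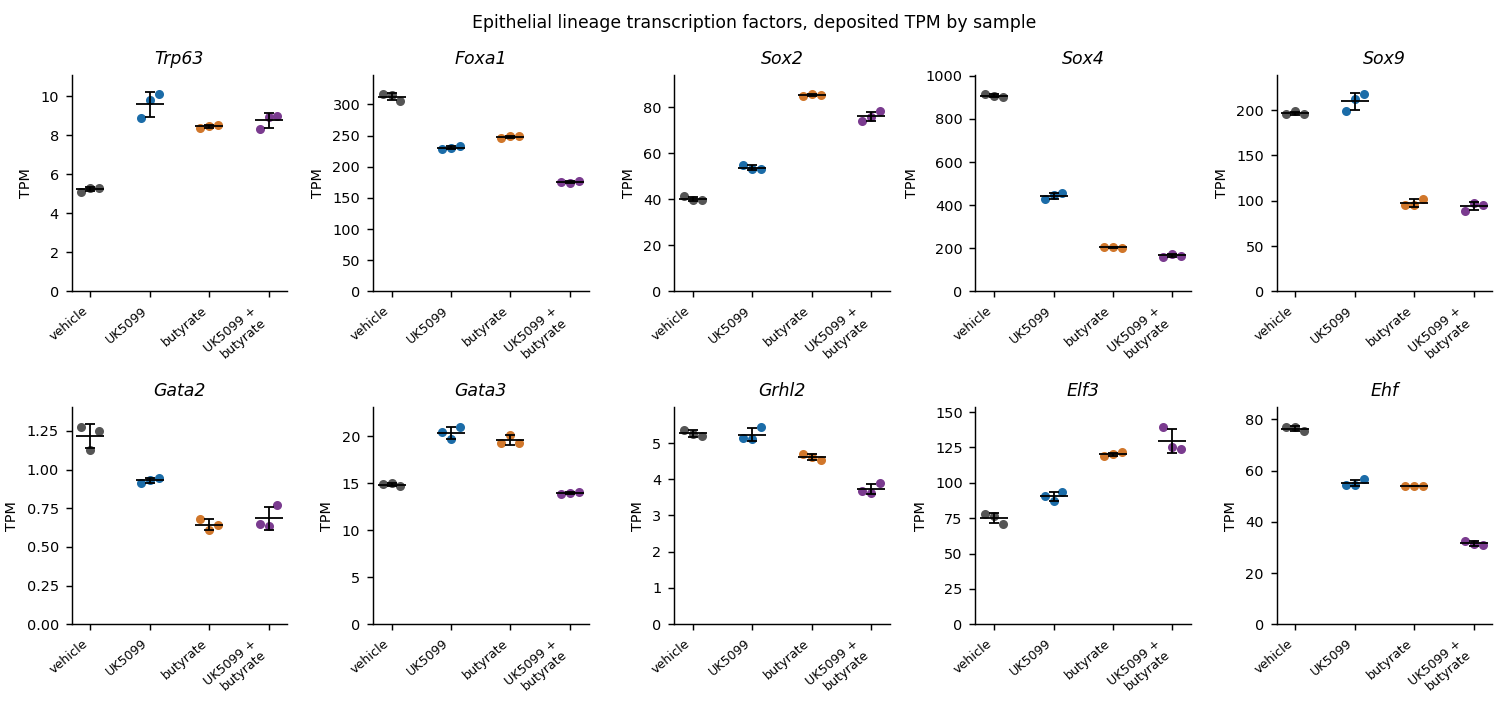
Deposited TPM (vertical axes, starting at 0) of each of the 10 members in 12 samples, as points by treatment group, with the group mean and SD (n = 3) in black. Sox4 fell to 0.184 of its vehicle mean with the combination, while Sox2 stood at 2.12 times its vehicle mean with butyrate.

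**Figure D2:**
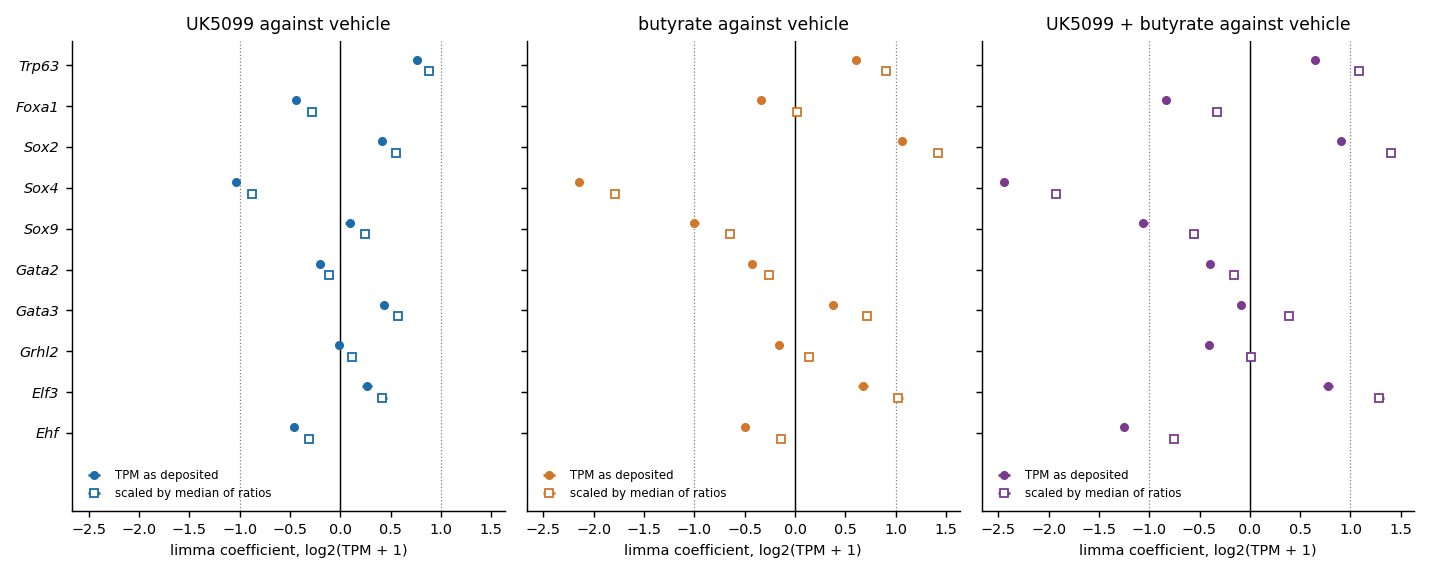
limma coefficients on log2(TPM + 1) against vehicle (horizontal axes) for each member, with filled circles for TPM as deposited, open squares after scaling by the median of ratios, bars for the SE (mostly within the symbol) and dotted lines at -1 and 1. The open squares lie to the right of the circles in every comparison, and Grhl2 changes side of 0 in all 3.

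On the deposited scale Sox4 had the largest coefficient of the members, in size, in each comparison with vehicle, and Sox2 moved the other way. Sox4 (ENSMUSG00000076431, chromosome 13, 29132902 to 29137696, minus strand), a SoxC factor known in progenitor cells and in epithelial plasticity, stood at 915, 908 and 903 TPM in the vehicle samples, 428, 447 and 456 TPM under UK5099, 205, 206 and 201 TPM under butyrate and 161, 175 and 165 TPM under both. Every treated sample was below every vehicle sample, the groups did not overlap, and butyrate and the combination lay far below UK5099. The coefficient was -1.03 ± 0.0321 (SE) with UK5099 (limma adjusted p = 1.82e-08), -2.15 ± 0.0321 (SE) with butyrate (adjusted p = 1.15e-10) and -2.44 ± 0.0321 (SE) with the combination (adjusted p = 2.79e-11). On the median of ratios scale these were -0.88, -1.79 and -1.93, so Sox4 fell on both scales but the UK5099 coefficient then lay within the size limit. Its mean with the combination was 0.184 of vehicle as deposited and 0.261 after that scaling.

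Sox2 (ENSMUSG00000074637, chromosome 3, 34704554 to 34706610, plus strand), a SoxB1 factor of stem cells and, in the prostate, of basal cells, rose with each treatment. It stood at 41.2, 39.9 and 39.4 TPM in the vehicle samples, 55.03, 53.05 and 53.005 TPM under UK5099, 84.6, 85.5 and 85.3 TPM under butyrate and 73.9, 75.8 and 78.1 TPM under both. The groups did not overlap, with butyrate the highest, the combination next and UK5099 between these and vehicle. Its coefficient was 0.41 ± 0.0242 (SE) with UK5099 (limma adjusted p = 9.47e-07), 1.07 ± 0.0242 (SE) with butyrate (adjusted p = 9.59e-10) and 0.90 ± 0.0242 (SE) with the combination (adjusted p = 1.15e-09). On the median of ratios scale the coefficients were 0.56, 1.42 and 1.402, and the combination then passed the size limit. The butyrate mean was 2.12 times vehicle as deposited and 2.72 times after scaling. Sox2 has a genomic span as long as its exons, and its 526 fragments in the lowest sample have a 95% Poisson interval of 482 to 573, which covers counting error only. Sox2ot, a long non-coding RNA whose span contains Sox2 on the same strand, held at most 52.000 fragments in a sample.

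Sox9 (ENSMUSG00000000567, chromosome 11, 112673050 to 112678586, plus strand), a SoxE factor of prostate bud and progenitor epithelium, separated the treatments. Its values were 196, 199 and 195 TPM in the vehicle samples, 199.5, 212 and 218 TPM under UK5099, 95.7, 94.9 and 102 TPM under butyrate and 88.7, 97.3 and 95.5 TPM under both. The butyrate and combination samples were all below vehicle and UK5099, and the UK5099 and vehicle ranges did not overlap either, though they lay close. Butyrate lowered Sox9 by a coefficient of -1.003 ± 0.0440 (SE) (limma adjusted p = 4.67e-08) and the combination by -1.06 ± 0.0440 (SE) (adjusted p = 1.85e-08). With UK5099 the coefficient was 0.09 ± 0.0440 (SE) with an adjusted p of 0.135 and an interval of -0.01 to 0.19. The scaled coefficients were 0.24, -0.65 and -0.55, and Sox9 was called for neither butyrate nor the combination there. With UK5099 it passed an adjusted p under 0.01 in limma on that scale, so this rise depended on the scaling. The butyrate call as deposited rested on the size limit: without vehicle replicate 2, butyrate replicate 1 or butyrate replicate 2 the coefficient was -0.99, -0.99 and -0.98.

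The ratio of Sox2 to Sox4 fragments within a sample, which no scaling of the sample changes, was 0.0193, 0.0188 and 0.0187 in vehicle, 0.0552, 0.0509 and 0.0499 with UK5099, 0.177, 0.178 and 0.182 with butyrate and 0.197, 0.186 and 0.203 with the combination. The treated samples all lay above vehicle. An exact permutation test of 3 samples against 3 cannot give a two-sided p below 0.10, and none was run on the ratios. The ratio shows that the genes changed unequally and not which of them changed.

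Of 30 relatives of the members by family, 23 were in the table. With UK5099 8 rose and 5 fell at an adjusted p under 0.01 on the deposited scale, with butyrate 9 rose and 5 fell, and with the combination 7 rose and 5 fell, with medians of 0.01, 0.05 and 0.0047. Over all genes 8.24%, 9.70% and 10.1% rose and 24.7%, 35.9% and 40.8% fell in these comparisons. Several other SOX genes were called for the combination. Sox7 rose from 4.35 ± 0.105 to 16.6 ± 0.438 TPM (coefficient 1.72), and Sox21 from 67.2 ± 0.824 to 150.2 ± 0.851 TPM (coefficient 1.15), means ± SD of 3 samples. Sox15, the remaining SOX gene called higher, had a coefficient of 1.12. Sox11, which like Sox4 is a SoxC gene, was the one relative called lower in each comparison with vehicle, from 5.399 ± 0.171 TPM in vehicle to 0.878 ± 0.0639 under UK5099, 0.615 ± 0.0661 under butyrate and 0.356 ± 0.106 under both. Sox12, the third SoxC gene, did not follow them: its coefficients were -0.17, 0.26 and 0.05 in the same order.

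Promoter windows of RefSeq, 250 bases before to 50 bases after a start on GRCm38.p6, were at hand for 6 of the 10 members, with 7 windows in all as Gata2 had a pair. They are of another build than the table's coordinates and were used for sequence only. Motif letters were searched on both strands. The letters ACAAAG, bound by SOX proteins, lay in 2 of the 7 windows, those of Sox2 and Foxa1, and in 18.7% of all 32851 windows. The forkhead letters TGTTTAC lay in the Foxa1 window and in 3.65% of all windows. The ETS letters CCGGAA lay in the Sox2 and Gata3 windows and in 14.9% of all windows. The grainyhead letters AACCGG lay in the Elf3 window and in 6.83% of all windows. The GATA letters AGATAA, in 11.2% of all windows, and the p53-family letters CATG present again after 6 further bases, in 0.712% of all windows, lay in none of the 7. A match is a description of the letters and not of binding. The windows of Sox2 (chr3:34649745-34650044, plus strand), Foxa1 (chr12:57546062-57546361, minus strand), Gata3 (chr2:9878551-9878850, minus strand) and Elf3 (chr1:135258423-135258722, minus strand) are shown because they hold the letters of other members' families. Capitals mark the matches on either strand, and the first 3 matches of Foxa1 overlap in its longest run.
Sox2: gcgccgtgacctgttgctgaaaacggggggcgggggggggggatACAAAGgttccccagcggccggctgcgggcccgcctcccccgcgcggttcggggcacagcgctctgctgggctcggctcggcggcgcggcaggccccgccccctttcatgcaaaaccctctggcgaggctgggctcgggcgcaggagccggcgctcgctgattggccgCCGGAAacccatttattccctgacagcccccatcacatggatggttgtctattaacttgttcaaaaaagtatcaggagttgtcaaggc
Foxa1: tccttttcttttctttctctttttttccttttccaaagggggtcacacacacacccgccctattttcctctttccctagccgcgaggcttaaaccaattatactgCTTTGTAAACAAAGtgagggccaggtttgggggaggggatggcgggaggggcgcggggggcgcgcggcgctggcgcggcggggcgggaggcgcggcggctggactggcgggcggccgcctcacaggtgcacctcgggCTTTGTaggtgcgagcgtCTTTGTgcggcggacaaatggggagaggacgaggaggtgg
Gata3: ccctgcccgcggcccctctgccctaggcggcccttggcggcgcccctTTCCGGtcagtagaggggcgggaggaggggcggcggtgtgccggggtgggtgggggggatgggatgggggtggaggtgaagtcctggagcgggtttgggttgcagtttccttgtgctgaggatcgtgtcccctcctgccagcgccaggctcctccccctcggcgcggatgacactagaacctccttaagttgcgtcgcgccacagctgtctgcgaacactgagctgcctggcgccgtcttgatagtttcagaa
Elf3: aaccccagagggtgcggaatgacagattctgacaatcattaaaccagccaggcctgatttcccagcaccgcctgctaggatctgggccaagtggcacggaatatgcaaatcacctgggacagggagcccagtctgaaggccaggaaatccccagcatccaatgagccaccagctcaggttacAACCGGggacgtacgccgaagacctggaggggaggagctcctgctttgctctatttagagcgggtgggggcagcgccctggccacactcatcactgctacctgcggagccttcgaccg
In the Sox2 window the SOX letters begin at -206 from the start and the ETS letters at -38. In the Gata3 window the ETS letters begin at -203, and in the Elf3 window the grainyhead letters begin at -68.

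The epithelial ETS factors Elf3 and Ehf moved apart. Elf3 (ENSMUSG00000003051, chromosome 1, 135181313 to 135186306, minus strand), which is known for epithelial differentiation and inflammatory responses, stood at 77.6, 76.7 and 71.1 TPM in the vehicle samples, 90.9, 87.2 and 93.3 TPM under UK5099, 119, 120.2 and 121 TPM under butyrate and 139, 125 and 124 TPM under both. All treated samples were above vehicle, and the butyrate and combination ranges did not overlap. The coefficient was 0.27 ± 0.0490 (SE) with UK5099 (limma adjusted p = 0.00172), 0.67 ± 0.0490 (SE) with butyrate (adjusted p = 1.49e-06) and 0.78 ± 0.0490 (SE) with the combination (adjusted p = 3.58e-07). It rose on both scales, by 0.42, 1.03 and 1.28 after the median of ratios, where butyrate and the combination passed the size limit. The long non-coding gene Gm26642 overlaps it on the other strand and held at most 159.8 fragments, against at least 2458 of Elf3.

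Ehf (ENSMUSG00000012350, chromosome 2, 103093778 to 103133623, minus strand), a factor of differentiated glandular epithelium, fell from 77.05, 76.9 and 75.3 TPM in vehicle to 54.4, 54.3 and 56.6 TPM with UK5099 and 53.9, 54.03 and 53.8 TPM with butyrate, and to 32.5, 31.5 and 30.8 TPM with the combination. The single treatments lay close together, both below vehicle and above the combination. The coefficient was -0.46 ± 0.0219 (SE) with UK5099 (limma adjusted p = 2.33e-07), -0.50 ± 0.0219 (SE) with butyrate (adjusted p = 4.96e-08) and -1.25 ± 0.0219 (SE) with the combination (adjusted p = 1.18e-10). After scaling it kept its direction, at -0.31, -0.14 and -0.75, but was no longer called. Against butyrate alone, the combination lowered Ehf by a coefficient of -0.75 ± 0.0219 (SE) (limma adjusted p = 2.84e-08), the lowest of the members in that comparison on both scales.

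The ratio of Elf3 to Ehf fragments was 0.126, 0.125 and 0.118 in vehicle, 0.209, 0.201 and 0.207 with UK5099, 0.277, 0.279 and 0.283 with butyrate and 0.538, 0.498 and 0.506 with the combination. The 4 groups did not overlap, and their order was vehicle, UK5099, butyrate and combination. Among the ETS relatives, Elf5, a factor of luminal progenitors in the mammary gland, had TPM of 0.429 ± 0.0537 in vehicle and 1.18 ± 0.180 with the combination (coefficient 0.61), while the broadly expressed Elf1, Elf2 and Elf4 had coefficients of -0.43, -0.64 and -0.71 there, and 0.02, -0.23 and -0.30 after scaling.

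**Figure D3:**
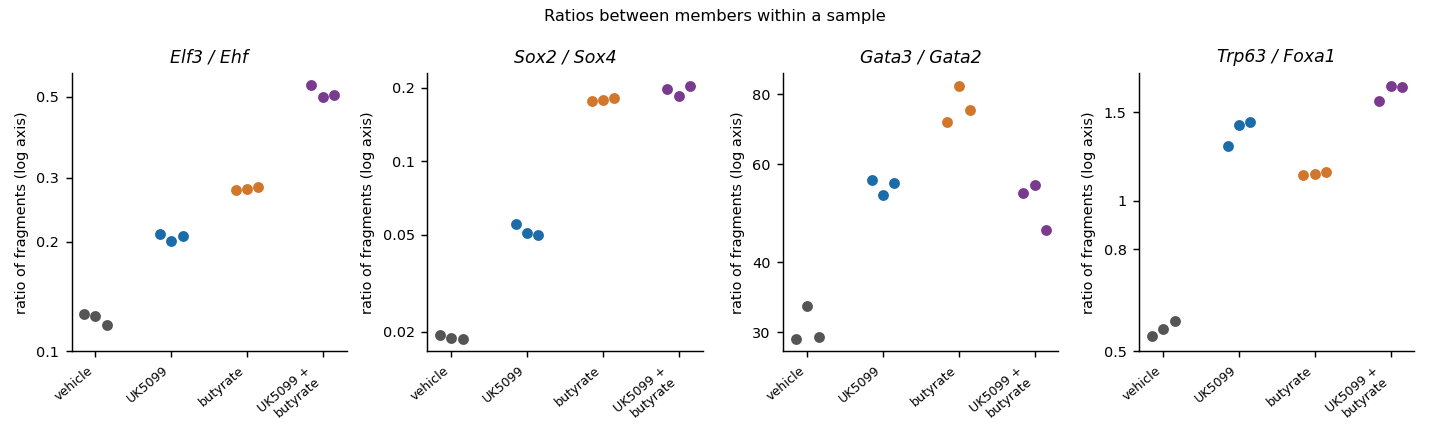
Ratios of estimated fragments between members of the same sample (vertical log axes) for 12 samples by group. Elf3 over Ehf had a mean of 0.123 in vehicle and 0.514 with the combination, and Sox2 over Sox4 went from 0.0190 to 0.195.

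Trp63 (ENSMUSG00000022510, chromosome 16, 25502513 to 25710852, plus strand), the basal cell factor, rose with every treatment. Its values were 5.11, 5.28 and 5.298 TPM in the vehicle samples, 8.87, 9.81 and 10.1 TPM under UK5099, 8.37, 8.47 and 8.54 TPM under butyrate and 8.34, 8.93 and 9.001 TPM under both. No treated sample was as low as a vehicle sample, and the UK5099 samples spread the most. The coefficient was 0.76 ± 0.0423 (SE) with UK5099 (limma adjusted p = 6.36e-07), 0.60 ± 0.0423 (SE) with butyrate (adjusted p = 1.12e-06) and 0.65 ± 0.0423 (SE) with the combination (adjusted p = 4.65e-07). The coefficients were 0.88, 0.91 and 1.09 after the median of ratios, and 0.95, 1.01 and 1.13 with voom on the estimated fragments, which needs no pseudocount in TPM. Trp63 has a span of 208340 bp and so a low TPM for its at least 7053 fragments per sample, and log2(TPM + 1) understates its change. The values cover the gene as a whole and do not separate its full-length and amino-terminally truncated isoforms.

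Of 18 basal genes linked to p63, keratins and adhesion genes for the most part, all were measured. With UK5099 16 rose and 0 fell at an adjusted p under 0.01 (median coefficient 0.61), beside 8.24% of all genes that rose. With butyrate the list divided, 8 genes rising and 9 falling (median -0.02), beside 9.70% and 35.9% of all genes, or 11 and 6 after scaling, beside 20.2% and 18.2%. The combination raised 12 and lowered 6 (median 0.35), beside 10.1% and 40.8% of all genes. The desmosomal cadherin Dsg3, with a combination coefficient of 1.63, and the hemidesmosomal collagen Col17a1, with 1.599, were the highest of those called for it. Among the genes called lower with butyrate, and named after their values were seen, were the laminin chain Lamb3 (36.8 ± 0.317 to 15.5 ± 0.291 TPM, coefficient -1.201) and the transcription factor Bnc1 (coefficient -1.05). Both lay within the size limit after the median of ratios, at -0.86 and -0.72. The paired basal keratins differed with butyrate, Krt5 having a coefficient of 0.77 and Krt14 of -0.27, the latter 0.09 after scaling. With UK5099 they were 1.42 and 1.59.

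**Figure D4:**
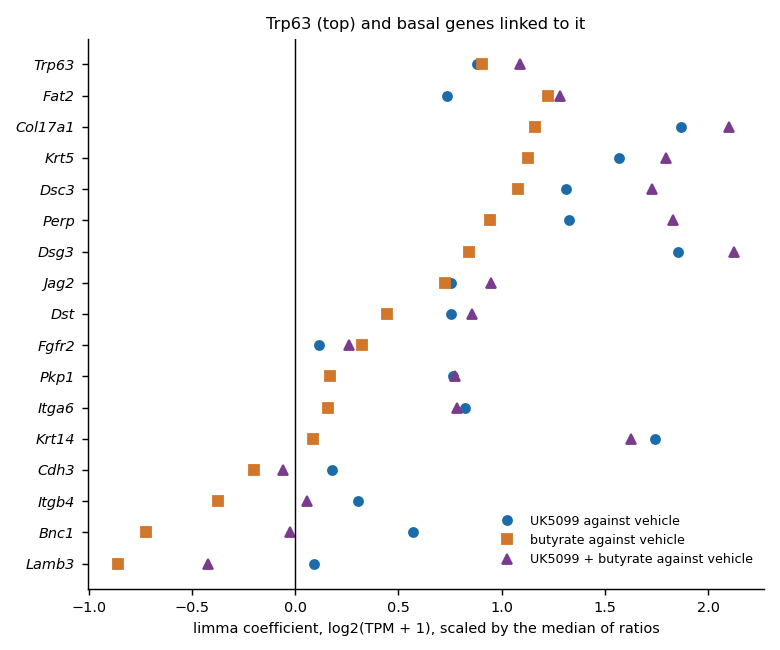
limma coefficients against vehicle on log2(TPM + 1), scaled by the median of ratios (horizontal axis), of Trp63 and 16 of the 18 basal genes linked to it, ordered by butyrate, with circles for UK5099, squares for butyrate and triangles for the combination. The Trp63 symbols lie at 0.88, 0.91 and 1.09, while the squares of the plotted linked genes run from -0.86 for Lamb3 to 1.22 for Fat2.

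Foxa1 (ENSMUSG00000035451, chromosome 12, 57587414 to 57593702, minus strand), the luminal forkhead factor, stood at 316, 315 and 306 TPM in the vehicle samples, 229, 229.7 and 234 TPM under UK5099, 246, 249 and 249 TPM under butyrate and 175, 174 and 177 TPM under both. The vehicle samples were the highest and the combination the lowest, and no groups overlapped. Its coefficient was -0.44 ± 0.0150 (SE) with UK5099 (limma adjusted p = 3.22e-08), -0.33 ± 0.0150 (SE) with butyrate (adjusted p = 5.42e-08) and -0.83 ± 0.0150 (SE) with the combination (adjusted p = 1.36e-10). Foxa1 fell with UK5099 and with the combination on both scales (-0.28 and -0.32 after the median of ratios), while the butyrate change was 0.02 after that scaling with an adjusted p of 0.108. The fall with butyrate thus did not hold apart from the shift of the whole scale. Trp63 fragments per Foxa1 fragment were 0.535, 0.554 and 0.573 in vehicle and 1.28, 1.42 and 1.43 with UK5099. The ratio was 1.13, 1.13 and 1.14 with butyrate and 1.58, 1.695 and 1.69 with the combination, so that all treated samples lay above vehicle. It compares samples and not the levels of the genes, whose exonic lengths are 8391 bp for Trp63 and 3327 bp for Foxa1. Per exonic length Foxa1 stayed above Trp63 in every group. The FPKM means were 89.4 against 48.8 with UK5099, 113 against 50.7 with butyrate and 83.97 against 55.1 with the combination.

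Trp73, the p63 relative, was near the floor in vehicle at 0.0244 ± 0.00715 TPM and stood at 0.319 ± 0.0121 TPM with UK5099, 0.336 ± 0.0377 TPM with butyrate and 0.658 ± 0.0305 TPM with the combination (SD, n = 3). It rose with each treatment in the limma fit, with coefficients of 0.36, 0.38 and 0.69. The other forkhead relative in the table, Foxa3, stayed under 0.1 TPM in all group means. Foxa2 was not listed.

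The GATA genes differed in level and in direction. Gata3 (ENSMUSG00000015619, chromosome 2, 9861889 to 9894845, minus strand), a factor of luminal and other glandular epithelia, stood at 14.9, 14.99 and 14.7 TPM in the vehicle samples, 20.5, 19.7 and 20.96 TPM under UK5099, 19.3, 20.1 and 19.3 TPM under butyrate and 13.8, 13.99 and 14.02 TPM under both. UK5099 and butyrate samples overlapped and were all above vehicle, whereas the combination was below vehicle. The coefficient was 0.43 ± 0.0242 (SE) with UK5099 (limma adjusted p = 7.01e-07) and 0.38 ± 0.0242 (SE) with butyrate (adjusted p = 6.02e-07). With the combination it was -0.08 ± 0.0242 (SE) (adjusted p = 0.0131) as deposited and 0.39 (adjusted p = 4.24e-07) after the median of ratios, so its direction against vehicle depended on the scale. On both scales the combination was below either treatment alone, by coefficients of -0.46 against butyrate and -0.52 against UK5099 as deposited and -0.32 and -0.18 after scaling. Overlapping genes at Gata3 held at most 60.5 fragments each.

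Gata2 (ENSMUSG00000015053, chromosome 6, 88170873 to 88184014, plus strand), known in prostate as a partner of luminal gene activation, was the lowest member, with 69 to 137 fragments per sample. The lowest count has a 95% Poisson interval of 53.7 to 87.3. Its values were 1.28, 1.13 and 1.25 TPM in the vehicle samples, 0.914, 0.934 and 0.947 TPM under UK5099, 0.677, 0.610 and 0.643 TPM under butyrate and 0.649, 0.636 and 0.770 TPM under both. Treated samples were all below vehicle. The coefficient was -0.20 ± 0.0348 (SE) with UK5099 (limma adjusted p = 0.00123), -0.43 ± 0.0348 (SE) with butyrate (adjusted p = 3.06e-06) and -0.40 ± 0.0348 (SE) with the combination (adjusted p = 4.37e-06). After the median of ratios the change was -0.11 (adjusted p = 0.0278), -0.26 (adjusted p = 1.58e-04) and -0.15 (adjusted p = 0.00358) in the limma fit. Voom on the fragments gave -0.31, -0.60 and -0.45, with adjusted p of 0.061, 6.43e-04 and 0.00429, so that the UK5099 change did not pass in either. Gata3 had 29.2, 33.4 and 29.4 fragments for each Gata2 fragment in vehicle and 71.5, 82.9 and 75.1 with butyrate. Gata6 stayed under 0.1 TPM in all group means, and Gata1, Gata4 and Gata5 were not listed.

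Grhl2 (ENSMUSG00000022286, chromosome 15, 37233280 to 37363813, plus strand) changed little, and its direction depended on the scale in all 3 comparisons with vehicle. It stood at 5.37, 5.25 and 5.18 TPM in the vehicle samples, 5.15, 5.097 and 5.44 TPM under UK5099, 4.699, 4.603 and 4.53 TPM under butyrate and 3.69, 3.61 and 3.89 TPM under both. UK5099 overlapped vehicle, butyrate lay just below and the combination was the lowest. With UK5099 the coefficient was -0.01 ± 0.0275 (SE), with an interval of -0.07 to 0.05 and a limma adjusted p of 0.851. It was -0.16 ± 0.0275 (SE) with butyrate (adjusted p = 7.19e-04) and -0.41 ± 0.0275 (SE) with the combination (adjusted p = 5.98e-07). After the median of ratios the values were 0.12, 0.14 and 0.01, the last with an adjusted p of 0.813. Those with UK5099 and with butyrate passed an adjusted p under 0.01 in limma. With butyrate Grhl2 thus passed in opposite directions on the deposited and the scaled values. The combination was below butyrate alone on both scales, at -0.25 and -0.13. Gm16136, a long non-coding gene on the other strand within Grhl2, held 541 to 1585 fragments, against at least 4397 for Grhl2. The libraries were stranded per the labels, but whether counting used the strand is not stated.

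Of 12 epithelial genes linked to Grhl2, all measured, 3 rose and 6 fell with UK5099, 2 rose and 9 fell with butyrate and 2 rose and 10 fell with the combination at an adjusted p under 0.01, beside 8.24%, 9.70% and 10.1% of all genes that rose and 24.7%, 35.9% and 40.8% that fell. The medians were -0.27, -0.56 and -0.80, and -0.12, -0.21 and -0.29 after scaling, when 6 fell with the combination, beside 20.6% of all genes. Epcam, an epithelial adhesion molecule, fell from 536 ± 8.39 to 95.4 ± 3.64 TPM with the combination (SD, n = 3), with a coefficient of -2.48, or -1.97 after scaling. Prss8, the membrane protease prostasin, had a combination coefficient of -1.62, or -1.16 after scaling. Ovol1, a zinc finger factor that maintains the epithelial state, was the only one of the list called higher, from 8.63 ± 0.624 to 39.7 ± 2.09 TPM. The relatives Grhl1 and Grhl3 had UK5099 coefficients of 0.46 and 0.95, Grhl3, which acts in epidermal barrier formation, rising from 3.79 ± 0.155 to 8.24 ± 0.434 TPM. With butyrate Grhl3 was at 4.25 ± 0.259 TPM.

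The combination was then set against the sum of the single effects by the interaction term, which the scaling left nearly unchanged. No member was called for it at both limits, beside 1.01% of all genes, but 7 of 10 passed an adjusted p under 0.01 in limma, beside 13.4% of all genes. Gata3 had the largest interaction: its single coefficients sum to 0.81 and its combination coefficient was -0.08, an interaction of -0.89 ± 0.0343 (SE) (limma adjusted p = 3.62e-07). Sox4 fell less than the sum of -3.18, with an interaction of 0.74 ± 0.0453 (SE) (adjusted p = 5.47e-06). Trp63 and Sox2 rose less than their sums, which were 1.37 and 1.48, with interactions of -0.72 ± 0.0598 (SE) and -0.57 ± 0.0342 (SE) (limma adjusted p = 3.58e-05 and 4.85e-06). For Ehf the combination went below the sum of -0.96, with an interaction of -0.29 ± 0.0310 (SE) (limma adjusted p = 1.72e-04), and for Grhl2 below -0.17, with -0.24 ± 0.0389 (SE) (adjusted p = 0.00211). Gata2, at 0.23 ± 0.0492 (SE) with a limma adjusted p of 0.00836, had an adjusted p of 0.0109 after the median of ratios. Foxa1 (-0.06, interval -0.11 to -0.01), Sox9 (-0.15, interval -0.29 to -0.01) and Elf3 (-0.16, interval -0.32 to -0.0037) did not pass, with limma adjusted p of 0.0787, 0.136 and 0.149.

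**Figure D5:**
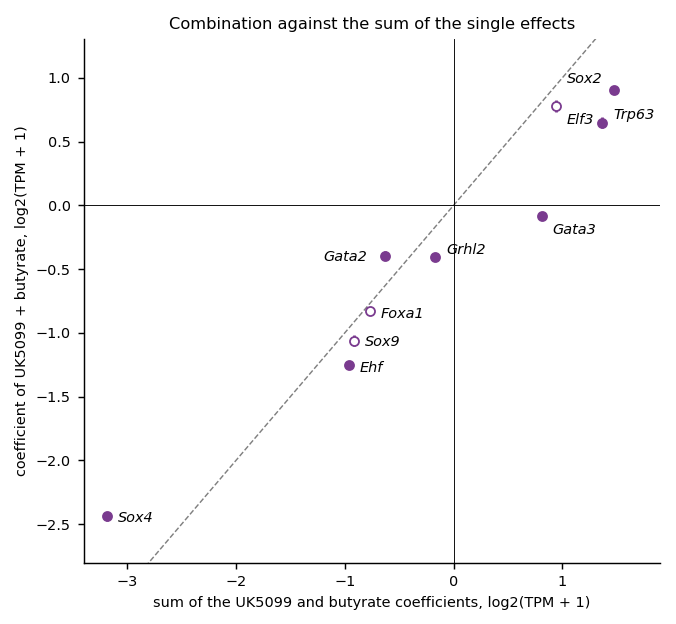
Combination coefficient against the sum of the UK5099 and butyrate coefficients (both log2(TPM + 1), deposited scale) for the 10 members, with the SE of the combination as vertical bars. Filled points passed an adjusted p under 0.01 for the interaction, and the dashed line marks equality, from which Gata3 departs by -0.89 and Foxa1 by -0.06.

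Against butyrate alone, the combination called 0 members in limma at both limits (background 0.908%), while 6 passed the adjusted p alone (background 27.5%), all lower (background 22.0%): Foxa1, Sox2, Sox4, Gata3, Grhl2 and Ehf. Of these, Sox2 had -0.01 and an adjusted p of 0.741 after the median of ratios. Trp63, with a coefficient of 0.04 and an interval of -0.05 to 0.14, and Sox9, with -0.06 and -0.16 to 0.04, did not pass on the deposited scale. Against UK5099 alone the combination called Sox4 (-1.41 ± 0.0321 (SE), limma adjusted p = 2.56e-09) and Sox9 (-1.15 ± 0.0440 (SE), adjusted p = 3.22e-08), beside 1.97% of all genes (9 members and 43.0% of all genes at the adjusted p alone), and Sox4 alone after the median of ratios, at -1.05.

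Butyrate and UK5099 were also compared with each other, at doses that the labels do not give. Sox4 (-1.12 ± 0.0321 (SE), limma adjusted p = 8.72e-09) and Sox9 (-1.09 ± 0.0440 (SE), adjusted p = 6.30e-08) were lower with butyrate and called, beside 1.86% of all genes (7 members and 37.5% of all genes at the adjusted p alone), and both had values within the size limit after the median of ratios, at -0.91 and -0.89. Sox2 (0.66 and 0.86 on the deposited and scaled values) and Elf3 (0.41 and 0.61) were higher with butyrate on both. For Ehf the difference was -0.03 with an interval of -0.08 to 0.02 as deposited and 0.17 after scaling. Trp63 differed by -0.16 (interval -0.26 to -0.07, limma adjusted p = 0.0108) as deposited and by 0.02 (adjusted p = 0.684) after scaling.

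The 16 further epithelial transcription factors gave the setting. With UK5099 11 rose and 1 fell, with butyrate 8 rose and 3 fell, and with the combination 8 rose and 5 fell at an adjusted p under 0.01, with medians of 0.23, 0.09 and 0.18. The shares over all genes in the same order were 8.24%, 9.70% and 10.1% that rose and 24.7%, 35.9% and 40.8% that fell. This list shares genes, Bnc1 among them, with the p63-linked list and Ovol1 with the Grhl2-linked list. Zfp750, a zinc finger factor of terminal epidermal differentiation that p63 is known to activate, was among the highest, at 11.7 ± 0.458 TPM in vehicle, 71.5 ± 3.498 under UK5099, 53.7 ± 1.65 under butyrate and 82.8 ± 4.19 under both (SD, n = 3). The coefficients of Zfp750 were 2.51, 2.11 and 2.72. Pitx1, a homeobox factor of limb and oral epithelium, was near the floor in vehicle (0.0179 ± 0.0311 TPM) and with UK5099 (0.0535 ± 0.0253 TPM) and stood at 0.931 ± 0.0714 TPM with butyrate and 4.48 ± 0.259 TPM with the combination. No gene of this list was called lower for the combination.

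The genes whose log2(TPM + 1) followed each member most closely were sought among 10114 protein-coding genes over the 12 samples, which share the 4 treatments. For Trp63 they were Plch2 (r = 0.995), Snai2 (r = 0.994) and Igsf3 (r = 0.983). Snai2 encodes the zinc finger factor Slug. For Sox4 they were Tm4sf1 (r = 1.000), Pvr (r = 0.999) and Bcl7c (r = 0.999), for Sox2 Mgp (r = 0.997), Rpl23 (r = 0.997) and Rps18 (r = 0.992), and for Sox9 Lima1 (r = 0.998), Pcdh19 (r = 0.997) and Plec (r = 0.997). Ehf was followed most closely by Ano1 (r = 0.997), Msi2 (r = 0.996) and Sun2 (r = 0.996), and Elf3 by Sat1 (r = 0.992), 2610528A11Rik (r = 0.988) and Aqp4 (r = 0.988). For Foxa1 the closest were Ephb2 (r = 0.999), Slc39a8 (r = 0.997) and Sh3rf1 (r = 0.997). Gata3 had the lowest likeness, to Cers6 (r = 0.962), Rab27a (r = 0.961) and Aldh6a1 (r = 0.956). Grhl2 was nearest to Fam210a (r = 0.994), Hjurp (r = 0.993) and Ahr (r = 0.990), and Gata2 to Spp1 (r = 0.991), Gnpnat1 (r = 0.991) and Arid5a (r = 0.989). The values of r come from the deposited scale, which carries the shift of the whole scale. That shift, and patterns set by only 4 group means, can give high values of r, and these genes are given as a description.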

How the data were processed

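Ribosome-depleted, mRNA-enriched RNA of 12 organoid samples was sequenced as read pairs. The submitters' processing notes name STAR 2.7.9a, Partek and the GRCm39 build, which the study's methods give for its other bulk RNA-seq, while for these organoids the methods name GRCm38, RSEM and another kit than the labels. The authors deposited one table of TPM per gene, which behaved as fragments over the genomic span scaled to 1000000. Its coordinates are printed as given, with the build not stated in its header, and 2.08% of nuclear genes matched GRCm38. Estimated fragments were recovered from the smallest step of each sample, of which 58.7 to 60.98% came out whole within 0.02 of a fragment. Depth was 33251840 to 43498956 fragments, and division by span gives long genes low TPM.

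Groups came from the labels. As in the study's methods, limma 3.58.1 (R 4.3.3) was fitted to log2(TPM + 1) of all 24674 genes and 12 samples with terms for UK5099, butyrate and their interaction, moderated by empirical Bayes and adjusted by Benjamini-Hochberg. The methods state no pseudocount, and 1 was used. Intervals of coefficients are 95%. The fit was tested on simulated data. Alternatives were other pseudocounts, scalings, priors, thresholds, a filter at 1 TPM, voom on fragments, a replicate block, separate fits and each sample left out. Levels between genes used GENCODE M21 exon lengths. Tables were made with Python 3.11.15, pandas 2.3.3 and numpy 2.4.6, and figures with matplotlib 3.10.9.

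The members and gene lists were chosen with earlier results of these data known, and no list was tested. The counts cover whole lists, of which 2 genes are not reported here by name or value. All members are named. From other lists the 2 highest and 2 lowest combination coefficients among called genes are named, with genes a sentence on a member refers to, and the 3 genes most like each member.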

Additional observations from a re-analysis of the deposited data

Results flagged for a closer look

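For 7 members the effect of UK5099 differed between cultures without and with butyrate, as tested by the interaction term of the limma fit at an adjusted p under 0.01, which 13.4% of all genes passed. The interaction coefficients on log2(TPM + 1) were -0.89 for Gata3, -0.72 for Trp63, -0.57 for Sox2, -0.29 for Ehf and -0.24 for Grhl2, and 0.74 for Sox4 and 0.23 for Gata2. Gata3 rose with UK5099 in the absence of butyrate, by 0.43, and was lower with UK5099 in its presence, with a coefficient of -0.46, all 3 samples of each treated group lying on the same side of their reference. Sox2 rose with UK5099 alone by 0.41 and had a coefficient of -0.16 on top of butyrate, which was -0.01 after the median of ratios. The Gata2 result rests on at most 137 fragments a sample, and its adjusted p was 0.0109 after the median of ratios and 0.0931 with voom. No group had enough samples for a search for outlying samples.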

How the results depend on the processing

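The number of called members depended on the scaling and on the size limit. Under the median of ratios 0 members were called for UK5099, 1 for the combination against UK5099 and 0 for butyrate against UK5099, beside 1.67%, 1.80% and 1.63% of all genes. Voom on fragments gave 0, 1 and 0 for these (all genes 5.97%, 8.17% and 7.79%), and 1 and 0 for the last pair with median of ratios size factors (8.43% and 7.58%). Quantile normalisation gave 1 for the combination against UK5099 and 1 for butyrate against UK5099 (1.70% and 1.65%). With an adjusted p under 0.01 alone, 8, 10 and 9 members passed for UK5099, butyrate and the combination, 6 for the combination against butyrate, 9 against UK5099, 7 for butyrate against UK5099 and 7 for the interaction, beside 33.0%, 45.6%, 51.0%, 27.5%, 43.0%, 37.5% and 13.4% of all genes. The same after the median of ratios, a setting chosen after seeing the data, gave 9, 9, 9, 7, 8, 8 and 6, beside 27.2%, 38.4%, 44.0%, 19.6%, 35.3%, 33.7% and 13.8%. An adjusted p under 0.05 with a 1.5-fold limit gave 2 for UK5099, 5 for butyrate, 7 for the combination, 1 for the combination against butyrate and 3 for the interaction, beside 5.52%, 13.8%, 22.5%, 2.70% and 3.34% of all genes. Coefficients that changed sign under the median of ratios were Grhl2 0.12 (UK5099), Foxa1 0.0235, Grhl2 0.14 (butyrate), Gata3 0.39, Grhl2 0.00791 (combination), Sox9 0.0920 (combination against butyrate), Trp63 0.20 (combination against UK5099) and Trp63 0.0238, Gata3 0.14, Grhl2 0.0212, Ehf 0.17 (butyrate against UK5099). Under quantile normalisation they were Grhl2 0.10 (UK5099), Grhl2 0.11 (butyrate), Gata3 0.38 (combination), Trp63 0.19 (combination against UK5099) and Trp63 0.0425, Gata3 0.21, Grhl2 0.0107, Ehf 0.23 (butyrate against UK5099). Coefficients that changed sign under voom on fragments were Grhl2 0.0702 (UK5099), Grhl2 0.12 (butyrate), Gata3 0.29 (combination), Sox9 0.0107 (combination against butyrate), Trp63 0.17 (combination against UK5099) and Trp63 0.0535, Gata3 0.18, Grhl2 0.0545, Ehf 0.20 (butyrate against UK5099). Under voom with median of ratios size factors they were Grhl2 0.14 (UK5099), Foxa1 0.0244, Grhl2 0.17 (butyrate), Gata3 0.42, Grhl2 0.0107 (combination), Sox9 0.0916 (combination against butyrate), Trp63 0.22 (combination against UK5099) and Trp63 0.0241, Gata3 0.15, Grhl2 0.0249, Ehf 0.17 (butyrate against UK5099). With each sample left out in turn, Grhl2 with UK5099 ranged over -0.0339 to 0.00562 and Gata2 for the combination against butyrate over -0.000926 to 0.0562, and all 84 counts of called members stayed within 1.5 times. Whether the replicate numbers pair the samples is not known. Same-numbered samples of 2 groups correlated by -0.107 to 0.0294 in their deviations from group means, which cannot show how the cultures were set up. A replicate block left all 77 counts and coefficients on the same side. Counts for UK5099, butyrate and the combination under the block were 1, 3 and 3. Replicate 1 of UK5099 and of the combination stood farther from the others of their groups than other replicates did. Depth limits Gata2 the most, where counting error alone is 12.04% of its lowest value.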
